A study of Danio rerio with 6 samples.

Results

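The genes described here are 8 transcription factor genes of skeletal muscle formation, taken by name from a table of 25745 genes measured in zebrafish tails. They are the myogenic regulatory factors myf5, myod1, myog and myf6, the paired-box genes pax3a, pax7a and pax7b of muscle precursors, and mef2ca, a partner of the regulatory factors. All 8 were found under their own symbol and all 8 passed the filter on low values, among 22813 genes that did. The libraries are poly(A) RNA from tails of embryos of the AB strain at 28 hours after fertilisation, 3 from sih mutants and 3 from wild type (WT). The label sih (silent heart) stands for mutants of the cardiac troponin gene tnnt2a, whose hearts do not contract. The sources used here do not give the allele, how the WT embryos were related to the mutants or how many tails made up a library.

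The myogenic regulatory factors are basic helix-loop-helix proteins that bind E-box sequences together with E proteins. Myf5 and Myod commit cells to the muscle lineage, Myogenin acts when myoblasts leave the cell cycle and differentiate, and Myf6 is linked with later fibre formation. Pax3 and Pax7 mark precursors of the dermomyotome, which in zebrafish is the external cell layer over the myotome, and they are also active in neural crest, pigment cells and the dorsal neural tube. Mef2c proteins act with the regulatory factors on genes of the contractile apparatus, and mef2c genes are also active in heart and blood vessels. In the tail, fibres differentiate further forward before they do at its end.

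Levels are normalised read counts, which the authors made by multiplying each library's gene reads by 1 factor per library. Gene reads numbered 21240839 to 27222955 per library, and 1 read was worth 0.826 to 1.43 normalised counts. Libraries with the same replicate number deviated together from their genotype means (correlation 0.932, 0.884 and 0.852 for numbers 1, 2 and 3), so each sih library is also set against the WT library of its number, called a pair. tnnt2a had 0, 0 and 3 reads in sih libraries 1 to 3, against 0, 9 and 4 in WT libraries 1 to 3, which is too few to check the labels in a tail. Muscle transcripts were abundant, as the label tail implies: the skeletal muscle actin gene actc1b averaged 1205099 normalised counts in sih tails and 894465 in WT tails. Of 12 cardiac markers, 8 stayed under 10 normalised counts in every library, among them myl7, vmhc, myh6 and nppa.

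Of the 8 genes, myog alone rose in sih tails in the paired fit, which takes the replicate number as a block, and none passed without that block. With the block, limma called 1 of 8 genes higher and 0 lower at an adjusted p under 0.05, against 2.77% higher, 2.07% lower and 4.84% in either direction among all genes tested. With the block edgeR called 2 of 8, against 7.89% of all genes, and DESeq2 1 of 8, against 4.32%, while limma with scaling by library totals called 0 of 8, against 9.81%. DESeq2 with the block gave no adjusted p for pax3a, pax7a and pax7b. Genes without one count as not called in its counts and shares, here and in the lists. Without the block limma called 0 of 8 and 0 of all 22813 genes. At an unadjusted p under 0.05 the limma fit with the block had 2 of the 8 (myog and myf5) and 4284 of all 22813 genes. The limma fit without the block had 0 of the 8 and 235 of all genes at that threshold. Without a block edgeR also called 0 of the 8 and 0 of all genes, and DESeq2 0 of the 8 and 48 of all genes (0.21%). No member had sih libraries that all lay above or all below the WT libraries, which 4.22% of genes did. The spread of a member over replicate numbers was larger than its difference between genotypes in 7 of the 8 genes, and in myod1 both shares were nearly equal. Without the block, p-values measure the spread between libraries of a genotype. With it, they measure the spread of the sih to WT difference between pairs. limma also draws each gene's spread toward a trend over all genes, so its SEs and p-values do not rest on a gene's own libraries alone. The spread between libraries may be technical, since the labels do not say that libraries came from separate clutches. In whole tails, more cells of a type and more RNA per cell cannot be told apart.

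**Figure D1:**
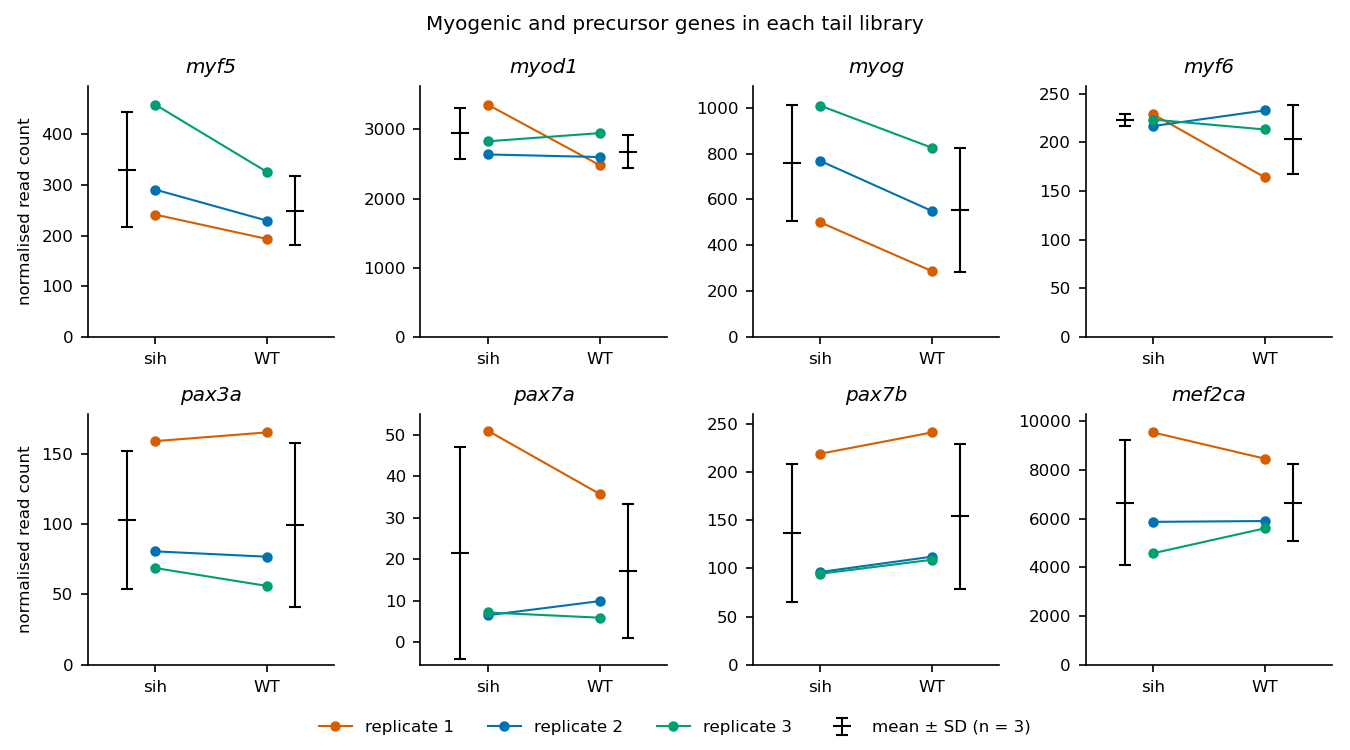
Normalised read counts (y axis, linear) of the 8 genes in sih and WT libraries, with lines that join the sih and WT library of a replicate number and black marks for mean ± SD of 3 libraries. The 3 lines of myog all end lower in WT, with 500.3, 768 and 1009 in sih against 287, 549 and 825 in WT, and the replicate 1 libraries of pax3a, pax7a and pax7b lie above the other 4.

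myog (ENSDARG00000009438), the differentiation factor, had 500.3, 768 and 1009 normalised counts in sih tails 1, 2 and 3, against 287, 549 and 825 in WT tails 1, 2 and 3. The sih library was the higher in each pair, yet sih tail 1 lay below WT tails 2 and 3, so the genotypes overlapped. The means were 759 ± 254 in sih and 554 ± 269 in WT (SD, n = 3 each). The log2 fold change was 0.52 ± 0.11 (SE) with the block, a 1.44-fold higher level with a 95% interval of 1.23 to 1.69, at an adjusted p = 0.00933 (limma). Without the block the SE was 0.42 and limma's adjusted p = 1, with an unadjusted p = 0.247. The call held with the block when pair 1, 2 or 3 was left out (limma's adjusted p = 0.0206, 0.00393 and 0.00114), with edgeR on the recovered reads (adjusted p = 0.000193) and with DESeq2 (adjusted p = 0.00315). The fits with a pair left out reuse the other pairs, so they are not independent support. They called 1248, 1482 and 506 of all genes, against 1105 with all pairs. The call of myog was lost with scaling by library totals and the block (0.34 ± 0.11, limma's adjusted p = 0.0655), a scaling that shifted the median of all genes to -0.18.

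The size of the myog difference was not the same in the 3 pairs. The sih to WT ratio was 1.74 in pair 1, 1.40 in pair 2 and 1.22 in pair 3. Exact 95% binomial intervals of these ratios, which cover counting error only, ran from 1.5 to 2.02, from 1.26 to 1.55 and from 1.1 to 1.35. These and all later counting intervals take the deposited factor of each library as exact, so another scaling would shift them. With those factors, all 3 intervals of myog lay above 1, and those of pairs 1 and 3 did not overlap. The ratio was highest in the pair with the lowest myog level and lowest in the pair with the highest.

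myf5 (ENSDARG00000007277), which commits cells to the muscle lineage, had 242, 291 and 458 normalised counts in sih tails, against 193, 229.5 and 325 in WT tails. It was the higher in sih in all 3 pairs, as were 20.2% of all genes tested, and the genotypes overlapped. Its log2 fold change was 0.38 ± 0.12 with the block, a fold of 1.31 with an interval of 1.09 to 1.56. It did not pass limma (adjusted p = 0.0772 with the block) or DESeq2 (adjusted p = 0.102 with the block), and it passed edgeR on the recovered reads with the block (adjusted p = 0.0423). The ratios in pairs 1, 2 and 3 were 1.25, 1.27 and 1.41, with counting intervals of 1.03 to 1.52, 1.07 to 1.49 and 1.2 to 1.65. These 3 intervals overlap each other and, with the deposited factors, lie above 1.

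myod1 (ENSDARG00000030110), the other factor of muscle commitment, had 3358, 2638 and 2828 normalised counts in sih tails, against 2483, 2601 and 2946 in WT tails. sih tail 1 was the highest of the 6 libraries and WT tail 1 the lowest, while the other 4 lay close together. The log2 fold change was 0.13 ± 0.09 with the block (limma's adjusted p = 0.481), with an interval from -0.06 to 0.33. The ratio was 1.35 in pair 1 (counting interval 1.28 to 1.43), 1.01 in pair 2 (0.964 to 1.07) and 0.960 in pair 3 (0.906 to 1.02). At the deposited scaling, a difference beyond counting error was therefore seen in pair 1 and in neither of the others. Without pair 1 the log2 fold change was -0.02.

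myf6 (ENSDARG00000029830), the factor linked with later fibre formation, had 229, 217 and 223 normalised counts in sih tails, against 164, 233 and 213 in WT tails. WT tail 1 stood below the other 5 libraries, which lay between 213 and 233. The log2 fold change was 0.15 ± 0.14 with the block (limma's adjusted p = 0.634), with an interval from -0.15 to 0.45. The ratio in pair 1 was 1.40 with a counting interval of 1.14 to 1.72, and in pairs 2 and 3 it was 0.931 and 1.05 with intervals that include 1. In pair 1 the counting intervals of all 4 myogenic regulatory factors lay above 1 at the deposited scaling. In pairs 2 and 3 those of myf5 and myog did. Such intervals were computed for the members alone, so no share of all genes stands beside these counts. myf5 and myf6 are neighbours on their chromosome in RefSeq's GRCz12tu annotation, where myf6 also overlaps the ribosomal protein gene rps16.

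pax3a (ENSDARG00000010192), a precursor gene of the dermomyotome, had 159, 80.6 and 68.8 normalised counts in sih tails, against 165, 76.8 and 56.02 in WT tails. The 2 libraries of replicate 1 were the highest, and within pairs the values were close. The log2 fold change was 0.10 ± 0.18 with the block (limma's adjusted p = 0.815), with an interval from -0.27 to 0.48. All 3 counting intervals of its pair ratios include 1.

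pax7b (ENSDARG00000070818), a Pax7 copy of muscle precursors, had 219, 96.3 and 94.5 normalised counts in sih tails, against 241, 112 and 109 in WT tails. It was the lower in sih in all 3 pairs, as were 18.2% of all genes, by ratios of 0.908, 0.858 and 0.867. Each counting interval includes 1 (0.75 to 1.1, 0.658 to 1.12 and 0.629 to 1.19). The log2 fold change of -0.19 ± 0.15 with the block did not pass (limma's adjusted p = 0.562), and its interval ran from -0.51 to 0.13. pax7a (ENSDARG00000005173), the other Pax7 copy, had 45, 7 and 5 reads in sih tails, against 39, 12 and 6 in WT tails. With so few reads in replicates 2 and 3 its ratio there is uncertain by counting alone, from 0.218 to 1.80 in pair 2 and from 0.293 to 4.78 in pair 3. Its log2 fold change was 0.07 ± 0.37 with the block (limma's adjusted p = 0.952), with an interval from -0.71 to 0.84. The fit leaves changes of pax7a within that interval undecided.

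mef2ca (ENSDARG00000029764), the partner of the regulatory factors, had 9539.5, 5868 and 4577 normalised counts in sih tails, against 8461, 5902 and 5603 in WT tails. Its means were nearly the same, at 6662 ± 2575 in sih and 6655 ± 1571 in WT (SD, n = 3 each). The log2 fold change was -0.04 ± 0.09 with the block (limma's adjusted p = 0.843), with a fold between 0.857 and 1.1. Being the member with the most reads, it had narrow counting intervals, and at the deposited scaling its pairs went in different directions. The ratio was 1.13 in pair 1 (1.09 to 1.16), 0.994 in pair 2 (0.961 to 1.03) and 0.817 in pair 3 (0.782 to 0.853). The sih to WT ratios of myog, myod1 and mef2ca each stood in the order pair 1, pair 2, pair 3, from high to low. The ratios of myf5 and pax3a stood in the opposite order.

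**Figure D2:**
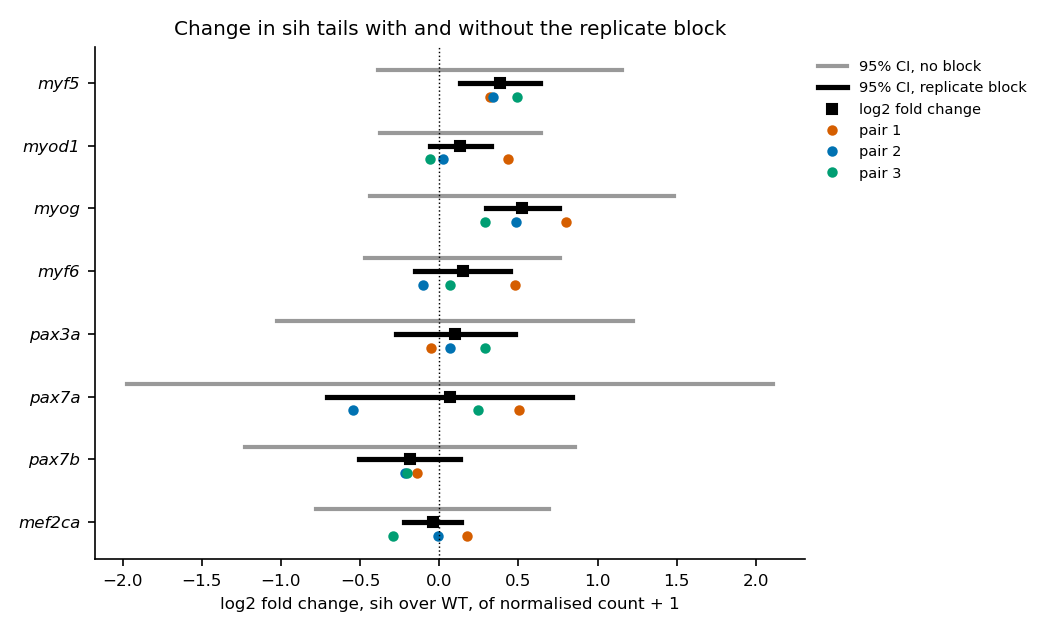
Log2 fold changes of normalised count + 1, sih over WT (x axis), for the 8 genes (rows), with 95% intervals of the limma fit with the replicate block (black) and without it (grey) and the log2 ratio of each pair (coloured points). The black intervals of myog, from 0.29 to 0.75, and myf5, from 0.13 to 0.64, lie above 0, and every grey interval spans 0. The intervals are not adjusted for the number of genes tested. In the fit with the block 4284 of all 22813 genes had an unadjusted p under 0.05.

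Ratios of 2 genes within a library need no scaling between libraries, and 3 of them were compared. The log2 ratio of myog to myod1 was -2.74, -1.78 and -1.49 in sih tails 1, 2 and 3, against -3.11, -2.24 and -1.84 in WT tails 1, 2 and 3. The difference, sih minus WT, was 0.39, and it was similar in the 3 pairs (0.36, 0.46 and 0.35), although the ratio itself differed more between replicate numbers than between genotypes. The exact two-sided permutation test over libraries gave p = 0.5 (adjusted over 3 ratios 0.75), where 3 against 3 cannot go below 0.1. The exact test within pairs gave p = 0.25, the smallest it can give with 3 pairs (adjusted over 3 ratios 0.375). Without WT tail 1 the difference between genotypes was 0.04.

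The log2 ratio of myog to myf5 was 1.05, 1.40 and 1.14 in sih tails, against 0.57, 1.25 and 1.34 in WT tails. It was higher in sih in pairs 1 and 2 and lower in pair 3, with a difference of 0.14 between genotypes (exact permutation p = 0.8, adjusted over 3 ratios 0.8). Without WT tail 1 the difference was -0.10. The log2 ratio of both Pax7 copies together to myod1 was -3.63, -4.67 and -4.78 in sih tails, against -3.16, -4.40 and -4.67 in WT tails. It was lower in sih in all 3 pairs, by -0.47, -0.27 and -0.12, and the difference of -0.29 did not pass (exact permutation p = 0.5, adjusted over 3 ratios 0.75, and p = 0.25 within pairs). Without WT tail 1 this difference was 0.17.

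**Figure D3:**
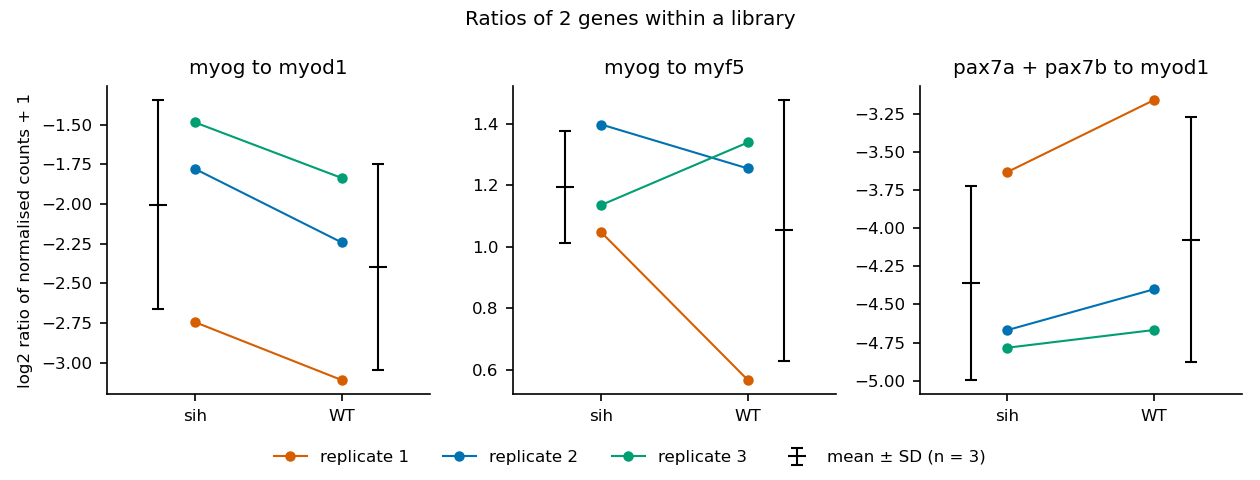
Log2 ratios of normalised counts + 1 within a library (y axis) for 3 gene combinations in sih and WT tails, with lines that join libraries of a replicate number and black marks for mean ± SD of 3 libraries. The 3 lines of myog to myod1 run nearly parallel, with differences of 0.36, 0.46 and 0.35, and the lines of the Pax7 ratio all end higher in WT.

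The replicate number went with larger differences than the genotype did in most of these genes. It took 97.8% of the sum of squares of the log2 values of pax3a, 97.0% of pax7b, 96.3% of pax7a, 92.7% of mef2ca, 77.3% of myog and 76.0% of myf5, beside a median of 79.8% over all genes tested. For myod1 and myf6 it took 21.3% and 29.0%. The genotype took 23.1% for myf5, 21.3% for myod1, 19.6% for myog, 19.0% for myf6 and at most 2.88% for the other 4, beside a median of 6.12%. The replicate number has more levels than the genotype, which favours a larger share for it.

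**Figure D4:**
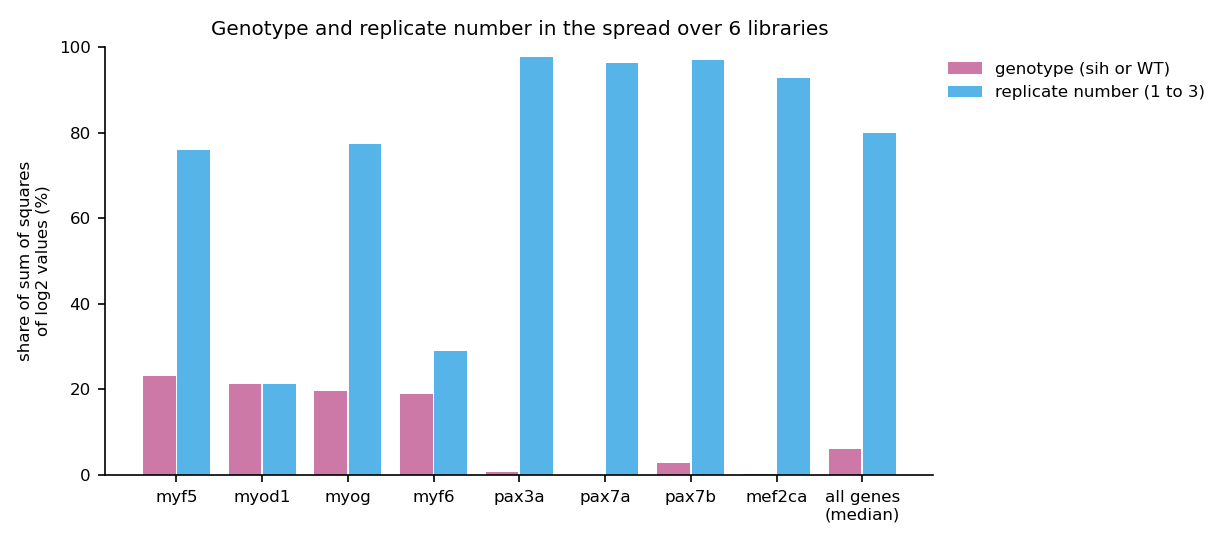
Share of the sum of squares of log2(normalised count + 1) over 6 libraries (y axis, percent) that goes with the genotype (left bars) and with the replicate number (right bars), for the 8 genes and as the median over all genes tested. The paired-box genes and mef2ca stand at 92.7% or more for the replicate number, and myod1 and myf6 at 21.3% and 29.0%.

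Replicate 1 stood apart in 5 of the 8 members. In both libraries of replicate 1, pax3a, pax7a, pax7b and mef2ca were higher than in the other 4 libraries, and myog was lower. These are 4 of 8 members higher, against 28.0% of all genes, and 1 of 8 lower, against 23.4%. In either direction replicate 1 stood apart in 51.3% of all genes, so such a split is common in this table. The mean of replicate 1 over that of replicates 2 and 3 was 5.90 for pax7a, 2.30 for pax3a, 2.23 for pax7b and 1.64 for mef2ca, and 0.5 for myog and 0.667 for myf5. pax3b, the other Pax3 copy, had 18.2, 1.85 and 0 normalised counts in sih tails, against 26.6, 2.48 and 0.983 in WT tails. cdh15 (M-cadherin), an adhesion molecule of myoblasts, had 335, 54.7 and 38.7 in sih tails, against 381, 37.98 and 37.3 in WT tails. The receptor gene met of migrating muscle precursors had 259, 74.1 and 87.4 in sih tails, against 250.3, 60.3 and 82.6 in WT tails. These last 3 genes come from the lists below and were chosen after their values were seen. In the list of precursor signalling and migration that holds cdh15 and met, 8 of 25 genes were higher and 6 lower in both libraries of replicate 1, with bmpr1ba among the lower ones. Of the 6 relatives of the members, which include pax3b, 5 were higher and 0 lower. Of 32 tested genes upstream of the regulatory factors, 11 were higher and 9 lower, with meox1 and tcf15 among the lower ones. The labels do not say what a replicate number marks.

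Since Pax3 and Pax7 genes are active outside muscle, the markers of those tissues are given beside them. The 16 dorsal neural tube markers summed to 5855 to 7592 normalised counts in sih tails, against 6012 to 7226 in WT tails. Over replicate numbers their sum was 7226 to 7592 in replicate 1 and 5855 to 6332 in the other 4 libraries, so it was also highest in replicate 1. Of the 16, 9 were higher and 2 lower in both replicate 1 libraries, against 28.0% higher and 23.4% lower of all genes. The 19 neural crest and pigment cell markers summed to 28322 to 40671 in sih tails, against 28942 to 38831 in WT tails. Their replicate 1 libraries, at 28942 to 30909, lay within the range of the others, and 6 of 19 were higher and 2 lower in both. The 9 endothelial markers summed to 4316 to 4463 in sih tails, against 3991 to 4387 in WT tails, and the 12 cardiac markers to 322 to 423 in sih tails, against 357 to 395 in WT tails. Of the 9 endothelial markers, 5 were higher and 1 lower in both libraries of replicate 1. The 12 sclerotome and fin mesenchyme markers summed to 14661 to 22892 in sih tails, against 16470 to 24034 in WT tails. Their sum was also higher in replicate 1 (22892 to 24034) than in the other 4 libraries (14661 to 21592). Gene by gene, however, only 2 of these 12 were higher in both replicate 1 libraries and 3 were lower. No marker of the 5 lists was at 0 in all libraries. The part of these tissues in the levels of pax3a, pax7a, pax7b and mef2ca was not tested.

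Of the 5 marker lists, 1 of 19 neural crest genes (snai1b, higher, 0.57 ± 0.14, limma's adjusted p = 0.0245 with the block) and 1 of 9 endothelial genes (cldn5b, higher, 0.44 ± 0.10, adjusted p = 0.0171) were called, against 4.84% of all genes. snai1b encodes a repressor of epithelial genes and cldn5b a junction protein of blood vessels. Neither call held without pair 3 (limma's adjusted p = 0.272 and 0.0519). The fit without pair 3 called 506 of all genes, against 1105 with all pairs, so losing a call there was common. None of the 16 dorsal neural tube, 9 cardiac and 12 sclerotome and fin mesenchyme genes was called by limma with the block. In that fit 1, 0 and 5 of them had an unadjusted p under 0.05, against 4284 of all 22813 genes tested. With the block, edgeR called 0, 0 and 1 of these and DESeq2 0, 0 and 0. Among the genes of smallest p in those lists, atoh1a stood at -0.79 ± 0.40, gata5 at 0.14 ± 0.13 and hand2 at -0.16 ± 0.18, and twist1a at 0.31 ± 0.10 and hapln1a at -0.21 ± 0.08.

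Relatives of the members did not pass. Of 6 tested relatives (pax3b and other mef2 genes), 0 were called by limma, edgeR or DESeq2 with the block. In the limma fit with the block 1 of the 6 had an unadjusted p under 0.05, against 4284 of all 22813 genes tested. mef2cb, the other Mef2c copy, averaged 923 ± 322 normalised counts in sih and 852 ± 207 in WT (SD, n = 3 each), a change of 0.09 ± 0.10 (limma's adjusted p = 0.691). mef2aa stood at -0.45 ± 0.23 (limma's adjusted p = 0.313), where the pairs 1, 2 and 3 had log2 ratios of 0.12, -0.30 and -1.16. The median of the 6 was -0.52, beside -0.0042 over all genes, and it lay at 0.19 in pair 1, -0.29 in pair 2 and -0.80 in pair 3. 3 of the 6 (pax3b, mef2ab and mef2b) averaged at most 10.0 normalised counts in either genotype, so their values rest on few reads.

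Genes that act upstream of the regulatory factors were largely not called. Of 32 tested genes of presomitic mesoderm, somite patterning, sine oculis and eyes absent homologues and Hedgehog signalling, 2 rose and 0 fell with the block, against 2.77% higher and 2.07% lower of all genes, and their median was 0.16, beside -0.0042 over all genes. tbx16l (named tbx6l in the table), a T-box gene of presomitic mesoderm, had 209, 91.7 and 87.4 normalised counts in sih tails, against 40.3, 28.9 and 28.5 in WT tails. Every sih library lay above every WT library. Its change was 1.85 ± 0.22 (limma's adjusted p = 3.66e-05 with the block), and the call held without each pair and with library totals. six4a, which encodes a sine oculis homeodomain protein of a family that acts on myogenic factor genes in mouse, rose by 0.34 ± 0.09 (adjusted p = 0.0378 with the block), by nearly equal amounts in pairs 1, 2 and 3 (0.33, 0.32 and 0.36). Its call did not hold without pair 2 (limma's adjusted p = 0.0816) or pair 3 (adjusted p = 0.22).

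Of 28 tested E protein, Id protein and cofactor genes, 3 rose and 0 fell with the block, against 2.77% higher and 2.07% lower of all genes, with a median of 0.11. vgll2b, a cofactor of TEAD proteins in muscle, averaged 1232 ± 238 normalised counts in sih and 938 ± 166 in WT (SD, n = 3 each), a change of 0.39 ± 0.09 (limma's adjusted p = 0.0171 with the block). smyd1b, a methyltransferase needed for myosin assembly in zebrafish, changed by 0.30 ± 0.08 (adjusted p = 0.035, limma) and mrtfab, a coactivator of serum response factor, by 0.33 ± 0.09 (adjusted p = 0.0392, limma). Without pair 3 these calls were lost (limma's adjusted p = 0.123 for vgll2b, 0.449 for smyd1b and 0.0696 for mrtfab), and that of mrtfab also without pair 1 or pair 2 (adjusted p = 0.166 and 0.0688).

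Among 25 tested genes for precursor signalling and migration, 3 rose and 0 fell with the block, against 2.77% higher and 2.07% lower of all genes, with a median of 0.09. hgfa, the ligand of the Met receptor, had 226, 222 and 159 normalised counts in sih tails, against 142, 139 and 115 in WT tails. Every sih library lay above every WT library, and the change was 0.60 ± 0.15 (limma's adjusted p = 0.0217 with the block, and 0.0658 without pair 2). cxcr4a, a chemokine receptor gene, changed by 0.41 ± 0.10 (limma's adjusted p = 0.0189, and 0.246 without pair 3), and bmpr1ba, a BMP receptor gene, by 0.36 ± 0.09 (adjusted p = 0.0325, and 0.148 without pair 2 and 0.105 without pair 3). cxcr4a and bmpr1ba kept their calls without pair 1, and hgfa without pair 1 or 3.

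Among 10 myoblast fusion genes that were tested, 1 rose and 1 fell with the block, against 2.77% higher and 2.07% lower of all genes, with a median of 0.03. The 2 called genes encode a pair of adhesion molecules that bind each other during fusion of fast muscle cells in zebrafish. jam2a had 628, 837 and 1359 normalised counts in sih tails, against 449, 616 and 939.5 in WT tails, and changed by 0.49 ± 0.09 (limma's adjusted p = 0.00541 with the block). jam3b had 986, 1296 and 627 in sih tails, against 1288, 1622 and 754 in WT tails, and fell by 0.32 on the log2 scale (SE 0.09, limma's adjusted p = 0.0407 with the block). The partners thus differed in opposite directions in all 3 pairs. The call of jam2a held without each pair, and that of jam3b was lost without any one of them (limma's adjusted p from 0.0938 to 0.12).

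Among 61 tested genes for fast and slow muscle differentiation, 5 rose and 0 fell with the block, against 2.77% higher and 2.07% lower of all genes, with a median of 0.09. tcap (titin-cap), a protein of the Z disc, had 398, 206 and 233.5 normalised counts in sih tails, against 199.9, 89.997 and 182 in WT tails, and every sih library lay above every WT library. Its change was 0.84 ± 0.16 (limma's adjusted p = 0.00387). It was the one of the 5 whose call held without each pair. The actin genes actc1a and actc1b, the calcium buffer gene pvalb4 and the desmin gene desma, the last of which was chosen after its values were seen, rose by 0.28 to 0.41. None of these 4 calls held without pair 3 (limma's adjusted p = 0.324, 0.483, 0.182 and 0.359). Few calls did in that fit, which kept 4 of the 16 called genes that the lists contribute by rule. actc1b also lost its call without pair 2 (limma's adjusted p = 0.0722) and pvalb4 without pair 1 (adjusted p = 0.0779). edgeR and DESeq2 on the recovered reads with the block called 16 and 12 of the 61 in either direction, against 7.89% and 4.32% of all genes. With scaling by library totals 1 of the 61 rose and 8 fell, against 181 higher and 2057 lower of all genes, where the main scaling had 632 higher and 473 lower with the block. The list's median was then -0.09, above the -0.18 of all genes, and with cyclic loess scaling it was -0.06. Of the 16 called genes that the lists contribute by rule, 3 kept their call with library totals (tbx16l, jam3b and tcap), and 12 with cyclic loess scaling, where smyd1b, actc1a, pvalb4 and actc1b lost it. desma lost its call with both scalings (limma's adjusted p = 0.371 and 0.623).

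**Figure D5:**
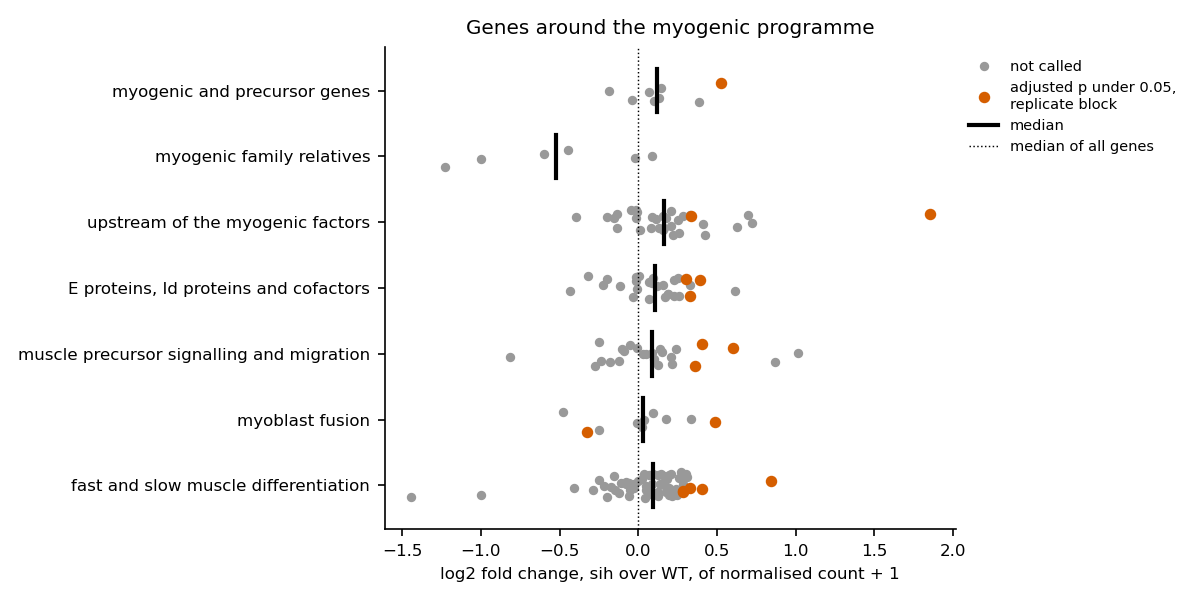
Log2 fold changes of normalised count + 1, sih over WT (x axis), of the tested genes of each list (rows), with list medians as black bars, genes called by limma with the replicate block in orange and the median of all genes as a dotted line. Medians lie between -0.52 and 0.16, and the called gene furthest to the right is tbx16l at 1.85.

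The genes most like each member over the 6 libraries, among those with a mean of at least 50 normalised counts, are given as a description, since libraries of a number share their deviations and many genes reach a high correlation over so few points. For myog they included gtpbp3 (Pearson r = 0.997), a mitochondrial tRNA modification gene, and rnf185 (0.994). For myf5 they were lsr and the ribosomal protein genes rpl10 and rps2, all above 0.998. For myod1 and myf6, whose levels followed the replicate number least, they were dpysl5b (0.983), CU019646.2 and vasp, and ctsc (0.991), nxn and sp5. For mef2ca they were zeb1b (0.9995), mmp14a and SOLH, and for pax3a tuft1b (0.996), MPRIP (1 of 2) and hs3st3b1b. For pax7a they were zcchc14, zfr2 and hmga2, all at 0.998, and for pax7b LRBA (0.999), CABZ01054933.1 and ITFG3.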

How the data were processed

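The authors deposited 1 table of signal values, made by multiplying the read counts of each library by 1 factor. Divided by the smallest value in its library, 100% of the deposited entries came out whole (tolerance 1e-06), which gave the reads. The submitters' processing notes name TopHat, HTSeq 0.5.3p5, edgeR 3.0.8 and build Zv9 without saying which did what. How the factor was found, which annotation was counted and whether strand was used are not stated in these sources, and no coordinates are printed. In RefSeq's GRCz12tu annotation 4 of the 8 members (myf5, myf6, pax7a and pax7b) overlap another gene. For myf6 this is the protein-coding gene rps16, and for pax7b the protein-coding gene kcnab2b and a long non-coding RNA gene. myf5 overlaps a microRNA gene and pax7a long non-coding RNA genes. The protocol in the labels marks no strand, so shared reads could not be told apart.

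The main test was limma 3.58.1 (trended prior variance, two-sided) applied to log2(value + 1), with sih over WT as the contrast. It ran on 22813 genes, those whose sih mean or WT mean reached 1. Benjamini-Hochberg adjustment covered all of them, and calls were made at 0.05. The added 1 makes fold changes of genes with few reads too small. The replicate numbers of the labels pair the libraries by the rule that each pair's correlation of deviations exceeds 0.1 (13248 genes with a mean of at least 50). Unlike numbers passed that rule too for sih 2 with WT 3 (0.136) and sih 3 with WT 2 (0.101), and the rest were negative. Pairs 2 and 3 themselves stood at 0.884 and 0.852. The fit with the number as a block stands beside the main one. edgeR 4.0.16 (quasi-likelihood) and DESeq2 1.42.0 were run on the recovered whole reads as alternatives, as were other scalings, pseudocounts, filters and left-out libraries. The limma and edgeR fits were also run on simulated reads with known changes, as a check of the code. The spread of those reads was set and not taken from these libraries, so that run does not bear on the calls. Gene ratios were compared by exact permutation tests (scipy 1.17.1).

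The members, lists and tests were chosen with earlier results of these data known. Named genes are the 8 members; from each list up to 4 called genes with the smallest p, or 2 with the smallest p and a mean of at least 10 where none was called; and the genes of highest Pearson correlation with each member, 3 per member. Of the list genes, those without a row in the table were left out. Some genes that this rule gives are not reported here.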

Additional observations from a re-analysis of the deposited data

How the results depend on the processing

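Without a block the count of called genes stayed at 0 for the members under every alternative run (7 of the 8 with at least 1 CPM in 3 libraries, which left out pax7a), and at 0 for all genes except with DESeq2 (48). With the replicate block, 1105 genes were called by limma, 1799 by edgeR, 986 by DESeq2, 2238 with library totals and 1155 with cyclic loess scaling, an alternative chosen after seeing the data. Of the members, 1, 2, 1, 0 and 1 were called in these 5 fits. myog was called in 4 of them, and myf5 by edgeR alone. Leaving out a library without the block gave 0 called genes, and leaving out pair 1, 2 or 3 with it gave 1248, 1482 or 506 called genes and 1 called member. The replicate block changed the call of myog with limma, edgeR and DESeq2 and that of myf5 with edgeR, and no other call of a member in these fits.

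Library totals turned the log2 changes of myod1 (-0.052), myf6 (-0.035), pax3a (-0.081) and pax7a (-0.10) negative, with and without the block, beside a median of -0.18 over all genes. Without a block mef2ca stood at 0.0024 with edgeR and 0.014 with DESeq2. With pair 1 left out, the paired values were -0.019 for myod1, -0.018 for myf6 and -0.15 for pax7a. With pair 3 left out, they were -0.021 for pax7a and 0.082 for mef2ca. With a library or pair left out, the changes ranged from -0.019 to 0.23 for myod1, from -0.018 to 0.27 for myf6, from -0.26 to 0.54 for pax3a, from -0.84 to 0.76 for pax7a, from -0.58 to 0.18 for pax7b and from -0.34 to 0.19 for mef2ca. myog (0.12 to 0.88) and myf5 (0.12 to 0.59) kept their direction. The ratios ranged from 0.04 to 0.76 for myog to myod1, from -0.10 to 0.28 for myog to myf5 and from -0.65 to 0.17 for Pax7 to myod1. A single left-out library unbalances the replicate numbers between genotypes. The causes were not tested. Depth limits pax7a most, with 5 to 12 reads in replicates 2 and 3.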
